A study of Rattus norvegicus with 20 samples.

Results

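The genes described here are the translation initiation and elongation factors of the rat, taken as every gene on the array whose name begins with Eif or Eef and a digit. They were 42 of the 36459 gene names on the array, covered by 67 probes, and the brightest probe stood for a gene. The names also bring in proteins that are not factors themselves: the Argonaute proteins listed under the older names Eif2c1 to Eif2c4, the kinases Eif2ak1, Eif2ak3, Eif2ak4 and Eef2k, the inhibitor Eif4ebp1, and Eef1e1 of the tRNA synthetase complex. Of the 42 genes 41 were bright enough to be tested. Eif2c4 (Ago4) was not, with a signal well above background in 7 of its 40 array channels. Eef1d, Eif2ak2, Eif4ebp2, Eif4g1 and Eif5a were not analysed here.

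Cortical neurons that the labels call sprouting, meaning that they grew new axonal connections after a stroke, were compared with non-sprouting neurons of the same rat. Every rat was 2 months old, had had a stroke, and had received CTb-Alexa 488 and later CTb-Alexa 647, cholera toxin tracers that label neurons projecting to the injection site, at 1 spot of the cortex bordering the infarct. The second tracer was given 21 days after the first in 5 rats and 7 days after it in 5 other rats, and the tissue was collected 7 days after the second tracer. About 300 neurons of each kind were cut out by laser per animal, and their RNA was amplified over 2 rounds before labelling. Both kinds of an animal were hybridised together on a 2-colour array, with 2 arrays per animal and the dyes exchanged. No group without a stroke was analysed here, and the sources used here do not give the strain, the way the stroke was made, or which tracer pattern defined each kind of neuron.

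Ratios are given as log2 of sprouting over non-sprouting neurons, averaged over both arrays of an animal, so that an animal is 1 replicate and a value above 0 means higher in sprouting neurons. Because the arrays compare bulk RNA of captured neurons, fewer cells of a type and less RNA per cell cannot be told apart. The median spot signal lay between 98.7 and 345 units per channel, and between 40.5% and 94.6% of probes lay well above background. Of the list of 12 markers of cortical projection neurons 8 were on the array, and all 8 passed the brightness filter. All 9 interneuron markers passed too, as did 8 astrocyte, 11 oligodendrocyte, 7 microglial and 8 endothelial or mural markers. The filter passed 37346 of all 41012 probes, so passing it does not show which cell types the RNA came from.

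A single animal stood apart. The 2 arrays of day 21 replicate 4, once turned to the same direction, correlated at -0.36 over all genes and at -0.19 over the 41 factors, so the direction of its ratios is not settled. In the other 9 animals the 2 arrays correlated between 0.34 and 0.73 over all genes and between 0.57 and 0.93 over the factors. The factor ratios of replicate 4 also spread least, with an SD of 0.06 over the factors against 0.13 to 0.30 in the other animals. Day 21 results are therefore also given without this animal, or with the sign of its ratios turned, where that changes a count or a call. At day 21, 15 factors lay above 0 and 26 below it on average both with it and without it, but 4 factors changed sign. Without it Eif2b1 averaged 0.01 (against -0.03 with it), Eif2s1 averaged 0.03 (against -0.0040), Eef1g averaged -0.00078 (against 0.0042) and Eif4g2 averaged -0.0014 (against 0.00014), and the same 4 changed sign when its ratios were turned.

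Translation factors recruit ribosomes to mRNA and drive peptide synthesis. The complex eIF2 brings the initiator tRNA to the small ribosomal subunit, eIF2B recharges eIF2 with GTP, and kinases that phosphorylate eIF2 under stress block that recharging. The cap-binding protein eIF4E, the scaffold eIF4G and the helicase eIF4A form eIF4F, which loads the mRNA, while 4E-binding proteins hold eIF4E back under the control of mTOR. The eIF3 complex bridges mRNA and ribosome, eIF5 and eIF5B lead to subunit joining, eEF1 delivers aminoacyl-tRNA, and eEF2 moves the ribosome on. Local protein synthesis in axons and growth cones is a known part of axon growth.

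Many mRNAs of this machinery begin with an uninterrupted run of pyrimidines, the terminal oligopyrimidine (TOP) motif through which mTOR controls their translation. Start regions were read from RefSeq promoter windows of the GRCr8 rat assembly, which cover 250 bases before and 50 after the annotated start. Of the 42 genes 34 had exactly 1 window, and Eif1a, Eif4e2 and Eif4g3, which had several, were not scanned. The 30 bases around the start are shown for Eef1a1, the textbook TOP mRNA, and for the 3 genes with the longest runs. Capitals mark the pyrimidine run that begins with a C within 5 bases of the annotated start.
Eef1a1, chr8:88225050-88225079, minus strand: ttggacgttCTTTTTCgcaacgggtttgcc
Eef1b2, chr9:72074081-72074110, plus strand: ggccggtcccggCCCTTTTTCTCCCTCagc
Eif3f, chr1:172369052-172369081, plus strand: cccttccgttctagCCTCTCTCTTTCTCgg
Eif2s3, chrX:62933680-62933709, minus strand: cagccgagcattttCCTTTTCTCTCTgagc

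The run had 7 bases in Eef1a1, 15 in Eef1b2, 14 in Eif3f and 12 in Eif2s3. Such a run of at least 5 bases was found in 10 of 34 factor windows (29.4%) and in 17% of all 33469 rat windows. A run of at least 12 bases was found in 3 of 34 (8.82%) and in 0.905% of all windows. The E-box CACGTG, the sequence bound by MYC and related factors, was searched on both strands in the same windows and was found in 7 of 34 factors (20.6%), against 6.42% of all windows. It occurred in Eef2, Eef2k, Eif3s10 (Eif3a), Eif3s5 (Eif3f) and Eif3s9 (Eif3b) once, and in Eif4e and Eif5a2 2 times. The promoters of Eif4e and Eef2 are shown because these genes had the lowest and the highest mean ratio at day 7 among the factors.
Eif4e, chr2:229740503-229740802, plus strand: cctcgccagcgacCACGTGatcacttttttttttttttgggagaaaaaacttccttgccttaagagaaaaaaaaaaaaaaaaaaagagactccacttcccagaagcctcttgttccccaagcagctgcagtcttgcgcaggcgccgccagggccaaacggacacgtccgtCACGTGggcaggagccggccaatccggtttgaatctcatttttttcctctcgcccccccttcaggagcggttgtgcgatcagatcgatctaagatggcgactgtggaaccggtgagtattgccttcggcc
Eef2, chr7:9189189-9189488, minus strand: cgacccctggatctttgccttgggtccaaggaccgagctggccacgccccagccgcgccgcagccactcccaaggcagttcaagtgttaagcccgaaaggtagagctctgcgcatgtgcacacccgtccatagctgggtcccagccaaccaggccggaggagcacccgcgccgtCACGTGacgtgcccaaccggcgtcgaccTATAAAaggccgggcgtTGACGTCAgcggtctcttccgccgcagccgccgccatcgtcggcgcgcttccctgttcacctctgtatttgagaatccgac

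Capitals in the Eif4e promoter mark its E-boxes, which begin 237 and 80 bases before the start, 157 bases apart. Capitals in the Eef2 promoter mark, in order, an E-box 76 bases, a TATAAA box 48 bases and the cAMP response element TGACGTCA 31 bases before the start. TATAAA was found in 3 of 34 factor windows (8.82%) and 14.2% of all windows, and TGACGTCA in 1 of 34 (2.94%) and 1.83%. These matches describe the letters of the windows, and no binding was measured.

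At day 7 sprouting and non-sprouting neurons differed little in translation factor mRNA. Of 41 factors 22 lay above 0, where 46.5% of all genes did, and 19 lay below it, with a median of 0.0087 against -0.0053 over all 33209 genes tested. All 41 factors had a mean within 0.25 of 0 on the log2 scale, as did 96.2% of all genes. No factor passed a Benjamini-Hochberg adjusted p of 0.05 in the limma fit over all genes, where 0.00301% of genes did, and the lowest adjusted p of a factor was 0.42. At an unadjusted p under 0.05 there were 3 factors, 7.32% of the 41, against 9.49% of all genes. They were Eef2 and Eif2ak1 on the higher side, where 4.51% of all genes were, and Eif4e on the lower side, where 4.98% were. Under median centring in place of loess, an array-wide shift with no correction for intensity, only 9 of the 41 lay above 0, with a median of -0.11.

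**Figure D1:**
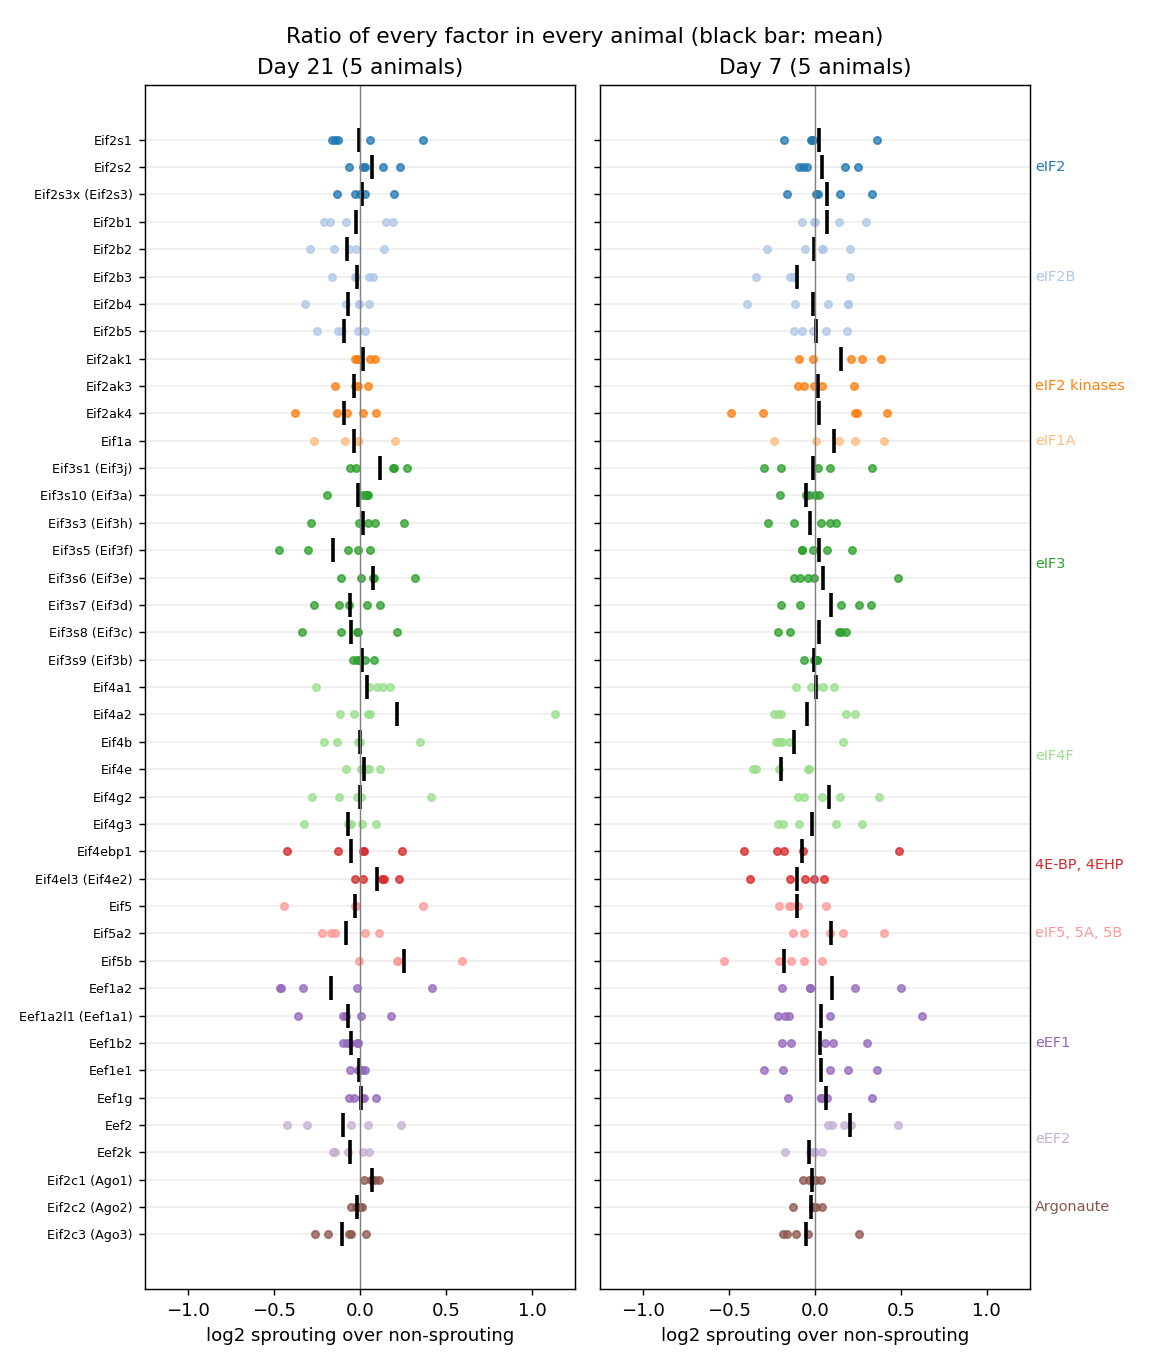
Mean log2 ratio of sprouting over non-sprouting neurons for each of the 41 translation factors, at day 21 and at day 7, with the value of every animal as a point coloured by role (n = 5 animals per day, 4 at day 21 for Eif5b and Eif2ak3). Means lie close to 0 on both days, between -0.20 and 0.21 at day 7 and between -0.17 and 0.25 at day 21.

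Eif4e, the cap-binding protein of eIF4F, was lower in sprouting neurons of all 5 day 7 animals. Its log2 ratios were -0.04, -0.36, -0.21, -0.04 and -0.34, a mean of -0.20 ± 0.16 (SD, n = 5), or 1.15-fold lower in sprouting neurons. Ratios of 3 animals lay well below 0 and those of replicates 1 and 4 were near 0. The limma p was 0.0037 and its adjusted p was 0.42. A ratio below 0 in every day 7 animal was found for 1 factor and for 5.13% of all genes. The other Eif4e probe gave 0.47, -0.18, -0.21, -0.01 and -0.33 at day 7, which matches the brighter probe in replicates 3 and 5 and opposes it in replicate 1. With the mean of both probes, the day 7 ratio of Eif4e was -0.12 at a limma p of 0.13.

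Eef2, the translocase that moves the ribosome along the mRNA, was higher in sprouting neurons of all 5 day 7 animals. Its ratios were 0.08, 0.17, 0.48, 0.10 and 0.21, a mean of 0.21 ± 0.16 (SD, n = 5), or 1.15-fold higher. The ratio of replicate 3 was the highest by far, and the other 4 were between 0.08 and 0.21. The limma p was 0.043 and its adjusted p was 0.52. By the brightest probe of each gene, a ratio above 0 in every day 7 animal was found for this 1 factor and for 3.57% of all genes. Without replicate 3 the mean was 0.14 with a p of 0.17, and under median centring it was 0.06. Without day 21 replicate 4, which enters the shared estimate of spread, its p was 0.056.

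Eif2ak1, the haem-regulated eIF2 kinase HRI, had ratios of 0.39, 0.21, 0.27, -0.01 and -0.09 at day 7. Replicates 1 to 3 were high and replicates 4 and 5 lay just below 0. The mean was 0.15 ± 0.20 (SD, n = 5) with a limma p of 0.030 and an adjusted p of 0.50. The other eIF2 kinases on the array were Eif2ak3 (PERK, the kinase of the endoplasmic reticulum stress response), at 0.02 ± 0.13, and Eif2ak4 (GCN2, the sensor of uncharged tRNA), at 0.02 ± 0.39. Eif2ak4 went both ways, from -0.49 in replicate 4 to 0.42 in replicate 1.

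The target of these kinases, Eif2s1 (eIF2 alpha), averaged 0.03 ± 0.20 at day 7 and was above 0 in 1 of 5 animals, replicate 3 at 0.36. All 3 eIF2 subunits had a mean slightly above 0, between 0.03 and 0.07, and under median centring none did. Of the 5 eIF2B subunits 2 lay above 0, and the catalytic subunit Eif2b5 averaged 0.01 ± 0.12. Of the 8 eIF3 subunits 4 lay above 0, with means from -0.05 to 0.09. Eif3s6 (Eif3e) was below 0 in 4 animals and at 0.49 in replicate 3.

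Of the 6 genes of eIF4F and its helicase, with Eif4b counted among them, 2 had a mean above 0 at day 7. The helicase Eif4a1 averaged 0.01 ± 0.08, and its paralogue Eif4a2, abundant in neurons, averaged -0.05 ± 0.23, with saturated spots on 1 of 10 arrays in sprouting and 3 of 10 in non-sprouting neurons. Eif4g2, an eIF4G-like scaffold that does not bind eIF4E, averaged 0.08 ± 0.19. The partners that compete for the cap or for eIF4E both averaged below 0: Eif4ebp1 at -0.08 ± 0.34 and Eif4el3, the older name of Eif4e2 (4EHP, a cap-binding repressor), at -0.11 ± 0.17. Eif4ebp1 was negative in 4 animals and at 0.49 in replicate 5. Eif4b, which stimulates the helicase, averaged -0.12 ± 0.16 with 4 of 5 animals below 0, and Eif5, the GTPase-activating factor, -0.11 ± 0.10 with 4 of 5 below 0. Dimmer probes did not repeat these values: the others averaged -0.02, 0.08 and 0.03 for Eif4b, and the other Eif5 probe averaged 0.07.

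The 7 genes with Eef names, which include Eef1e1 and the kinase Eef2k, leaned upward at day 7. Of these Eef genes 6 of 7 had a mean above 0, with a median of 0.034. Only Eef2 reached an unadjusted p under 0.05 among them, and under median centring 1 of 7 lay above 0. Eef1a2l1, the older name of Eef1a1, averaged 0.03 ± 0.35, with replicate 3 at 0.62 and the other animals between -0.21 and 0.09. Its neuronal and muscle paralogue Eef1a2 averaged 0.10 ± 0.27, the exchange factor subunit Eef1b2 averaged 0.03 ± 0.20, and the subunit Eef1g averaged 0.06 ± 0.18 (SD, n = 5 each). Eef2k, the kinase that inhibits eEF2, averaged -0.03 ± 0.08. In single animals the median over the 7 genes was -0.17, 0.07, 0.04, 0.03 and 0.21 at day 7, so that replicates 1 and 5 were furthest apart.

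Ribosomal protein genes, the main TOP genes, were above 0 on average for 60 of 68 at day 7 with a median of 0.10, and for 10 of 68 with a median of -0.12 under median centring. Of the 68 genes 6 were higher and 1 lower at an unadjusted p under 0.05, and none passed the adjusted p. Their medians in single animals were -0.20, 0.04, 0.09, 0.12 and 0.38. The median of 11 oligodendrocyte markers was -0.20, 0.20, -0.07, 0.64 and 0.80 in the same animals, and that of 8 astrocyte markers was -0.15, 0.00, -0.13, 0.09 and 0.49. Replicate 1 was low and replicate 5 high for the Eef genes, the ribosomal proteins and these 2 sets of glial markers. Other sets ran differently. The median of 7 microglial markers was -0.17, 0.39, -0.24, 0.10 and 0.10, lowest in replicate 3 and highest in replicate 2. That of 8 endothelial or mural markers was 0.01, -0.06, -0.255, 0.05 and 0.03. In sprouting neurons at day 7 the median level of the oligodendrocyte markers ran from 8.12 to 9.09 over animals, against 7.85 to 8.71 in non-sprouting neurons. No marker of the oligodendrocyte or astrocyte list was below background on all arrays. The part of glial RNA in these ratios was not tested. Of 8 factors known as TOP mRNAs in human cells 6 lay above 0 at day 7, with a median of 0.032, and 1 of 8 under median centring.

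At day 21 the factors again lay close to 0. Of 41 factors 15 had a mean above 0, where 48.9% of all genes had one, and 26 had one below it. The median was -0.019 against -0.0015 over all genes, and 40 of 41 (97.6%) had a mean within 0.25 of 0 against 97.5% of all genes. With the scanner's processed signals 21 of 41 lay above 0. No factor and no other gene passed the adjusted p in limma (0% of genes), and the lowest adjusted p of a factor was 0.839. At an unadjusted p under 0.05 there were 2 factors, 4.88% of the 41, against 5.8% of all genes. Both, Eif2c1 and Eif5b, were on the higher side, where 3.42% of all genes were, and none was on the lower side, where 2.38% were.

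Eif2c1 is the older name of Ago1, an Argonaute that carries small RNAs to their targets and is no initiation factor in current naming. Its ratios at day 21 were 0.06, 0.02, 0.11, 0.07 and 0.09, a mean of 0.07 ± 0.03 (SD, n = 5), or 1.05-fold higher, with a limma p of 0.020 and an adjusted p of 0.839. All 5 animals were above 0, as was the case for 4.34% of all genes. The mean was 0.07 without replicate 4 as well. With the ratio of that animal turned, 4 of 5 animals were above 0 and the mean was 0.04 with a limma p of 0.21. With the scanner's processed signals it was -0.01. The limma p was 0.068 without replicate 3, 0.055 without replicate 5 and 0.21 with the 20 arrays as units. The probe was dim, well above background in 30 of its 40 array channels, and in 6 of the 10 channels of sprouting neurons at day 21. At day 7 the ratios of Eif2c1 were -0.07, 0.01, -0.03, 0.03 and -0.01. The other tested Argonautes averaged -0.02 ± 0.02 for Eif2c2 (Ago2, the slicing member, named to complete the family) and -0.11 ± 0.12 for Eif2c3 (Ago3) at day 21.

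Eif5b, the GTPase that joins the ribosomal subunits, was measured in 4 animals at day 21, at 0.59, 0.22, -0.01 and 0.22 in replicates 2 to 5. The highest ratio was that of replicate 2 and that of replicate 4, whose direction is not settled, was near 0. The mean was 0.25 ± 0.25 (SD, n = 4), or 1.19-fold higher, with a limma p of 0.036 and an adjusted p of 0.839. The call at the unadjusted p held without replicate 4, where the mean was 0.34. That call was lost without replicate 2, without replicate 3, without replicate 5, and with the mean of both probes. At day 7 the ratios were -0.53, 0.04, -0.14, -0.21 and -0.06, lowest in replicate 1. The other Eif5b probe gave -0.03, 0.09, -0.33, -0.02 and 0.11 at day 21 and 0.13, 0.03, 0.01, -0.06 and 0.01 at day 7, so that this probe lay near 0 at day 7 except in replicate 1, where it had the opposite sign, and was below 0 in replicate 3 at day 21.

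Eef1b2 was lower in sprouting neurons of all 5 day 21 animals, where 4.17% of all genes were. With replicate 4 turned it was lower in 4 of 5, and Eif2ak3 was then the factor lower in every measured animal, where 3.42% of all genes were. The ratios were small, at -0.08, -0.06, -0.02, -0.01 and -0.10, with a mean of -0.05 ± 0.04 (SD, n = 5) and a limma p of 0.40. Of the Eef genes 1 of 7, Eef1g, lay above 0 at day 21, and none did without replicate 4. Their medians in single animals were -0.10, -0.06, -0.07, 0.01 and 0.01. The lowest factor mean was that of Eef1a2, with ratios of -0.47, -0.33, -0.46, -0.02 and 0.42 and a mean of -0.17 ± 0.38. Replicates 1 to 3 were low, replicate 4 was near 0 and replicate 5 was the highest. Eef2 averaged -0.10 ± 0.27 at day 21, with ratios of -0.31, 0.24, -0.42, -0.05 and 0.05 on both sides of 0.

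All 5 eIF2B subunits had a mean below 0 at day 21, from -0.09 to -0.02, but Eif2b1 was above 0 without replicate 4, and under the processed signals 2 of 5 were above 0. No eIF2B subunit reached an unadjusted p under 0.05. The catalytic subunit Eif2b5 had ratios of 0.03, -0.25, -0.11, -0.02 and -0.13, below 0 in 4 of 5 animals, with a mean of -0.09 ± 0.11 (SD, n = 5) and a limma p of 0.091. Of the eIF3 subunits 4 of 8 lay above 0, and the TOP gene Eif3s5 (Eif3f) had the lowest mean of them, -0.16 ± 0.22 with a limma p of 0.052. It was low in replicates 1 and 2, at -0.31 and -0.47, and between -0.07 and 0.05 in the others. Eif4a2 averaged 0.22 ± 0.52, which rested on replicate 2 at 1.13, since the other 4 animals lay between -0.12 and 0.06. Its spots were saturated on 2 of 10 arrays in sprouting and 2 of 10 in non-sprouting neurons at day 21.

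The remaining well-known factors showed no shared direction over the day 21 animals. Eef1a2l1 (Eef1a1) averaged -0.07 ± 0.20, Eef1g averaged 0.00 ± 0.06 and Eef2k averaged -0.06 ± 0.09 (SD, n = 5 each). Of the eIF2 kinases, Eif2ak1 averaged 0.02 ± 0.05, Eif2ak3 averaged -0.04 ± 0.08 (n = 4) and Eif2ak4 averaged -0.10 ± 0.18, and their target Eif2s1 averaged -0.00 ± 0.22 (SD, n = 5 unless given). The spread of Eif2ak1 between animals was small, and the high ratios of its first 3 day 7 replicates were matched by none of the day 21 animals. Replicates 2 and 3 of day 21 stood at opposite ends for several factors: Eif5 had 0.36 in replicate 2 and -0.45 in replicate 3, Eif4g2 had 0.41 and -0.28, and Eif4b had 0.35 and -0.21. Their means were -0.03 ± 0.29, 0.00 ± 0.26 and -0.00 ± 0.21 (SD, n = 5 each). Eif4ebp1 went the other way in these animals, with -0.43 in replicate 2 and 0.25 in replicate 3, and averaged -0.06 ± 0.25. These are values of the brightest probes. In replicates 2 and 3 the other probe gave 0.12 and 0.10 for Eif4ebp1, 0.06 and -0.05 for Eif5, and 0.33 and -0.46 for Eif4g2. The other Eif4b probes gave -0.25 and 0.08, 0.19 and 0.04, and 0.30 and -0.15. Eif4a1 was above 0 in 4 of 5 animals and at -0.26 in replicate 2, where its other probes gave 0.34, 0.11, 0.27 and 0.03. Eif3s6 was above 0 in 4 of 5 animals with its highest ratio, 0.32, in replicate 5.

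**Figure D2:**
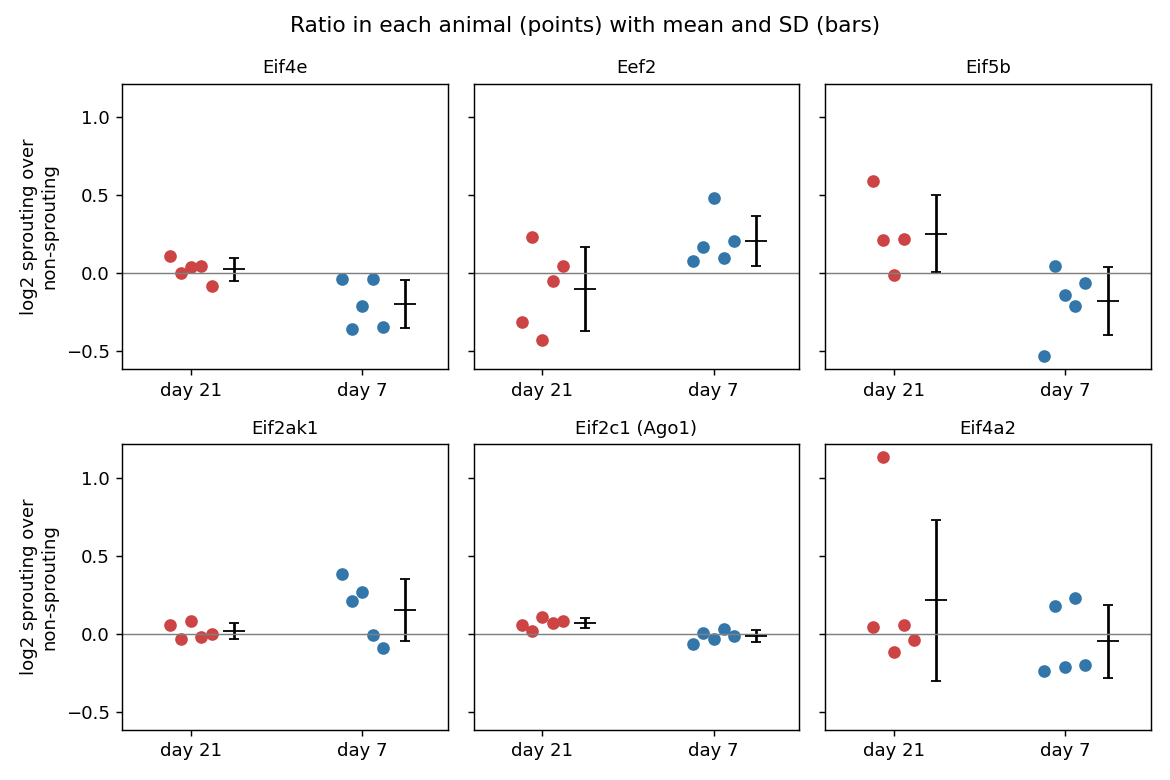
Log2 ratio of sprouting over non-sprouting neurons in every animal for Eif4e, Eef2, Eif5b, Eif2ak1, Eif2c1 (Ago1) and Eif4a2, day 21 left of day 7, with bars for the mean and SD (n = 5 animals per day, 4 at day 21 for Eif5b). Eif4e lies below 0 in all 5 day 7 animals and Eef2 above it, while their day 21 animals lie on both sides of 0.

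Averaged over both days, 19 factors lay above 0, where 46.9% of all genes did, and 22 below it, and under median centring 6 of 41 lay above 0. No factor had the same sign in all 10 animals, against 0.346% of all genes on the higher and 0.286% on the lower side. At an unadjusted p under 0.05 there was 1 factor, Eif4e, at -0.09 with a limma p of 0.043, and 11% of all genes. Without day 21 replicate 4 there was no factor. It was on the lower side, where 5.39% of genes were, and 5.61% were on the higher side with no factor. None passed the adjusted p (0% of genes), with a lowest value of 0.444.

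The ratio at day 21 was then compared with the ratio at day 7, between 5 and 5 different rats. At an unadjusted p under 0.05 there were 5 factors, 12.2% of the 41, against 4.04% of all genes, and neither a factor nor any other gene passed the adjusted p (0% of genes). The adjusted p of all 5 was 0.943. The ratio was higher at day 21 for Eif5b, Eif4e, Eif4el3 and Eif2c1, as for 2.32% of all genes, and lower for Eef2, as for 1.73%. Over the 41 factors 17 differences lay above 0, where 52.4% of all genes did, and 24 below it, with a median of -0.051 against 0.0043 over all genes, and under median centring 24 lay above 0. With the scan day as a block 3 factors had an unadjusted p under 0.05, as did 5.51% of all genes.

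For Eif5b the difference was 0.43 with an SE of 0.14 and a limma p of 0.012, and with the mean of both probes it was 0.16 with a p of 0.082. For Eif4e it was 0.22 with an SE of 0.07 and a limma p of 0.013, from day 21 ratios of 0.11, 0.01, 0.04, 0.05 and -0.08 against the day 7 ratios given above. With the mean of both Eif4e probes it was 0.15 with a p of 0.20. Within the 3 scan days that held animals of both days, the Eif4e difference was 0.29 and 0.36 (2 day 21 animals and 1 day 7 animal each) and -0.04 (1 animal each). In all scan day results an animal was placed by its array without exchanged dyes. The 2 arrays of day 7 replicate 3, the day 7 animal of the first of these scan days, were scanned on different days. Eif4el3 had ratios of 0.13, 0.14, 0.23, 0.02 and -0.03 at day 21, against -0.00, 0.05, -0.06, -0.14 and -0.38 at day 7. The groups overlapped through replicates 4 and 5 of day 21 and replicates 1 and 2 of day 7. Its difference was 0.20 with an SE of 0.08 and a limma p of 0.035, and 0.13, 0.56 and 0.11 within scan days. For Eif2c1 the difference was 0.08 with a limma p of 0.040, and with replicate 4 of day 21 turned it was 0.06 with a p of 0.23. It was 0.10, 0.08 and 0.05 within scan days.

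For Eef2 the difference was -0.31 with an SE of 0.13 and a limma p of 0.035 (0.0505 with day 21 replicate 4 turned), and -0.66, -0.30 and -0.05 within scan days. All 7 Eef genes, Eef1e1 and Eef2k included, had a lower ratio at day 21 than at day 7, with a median difference of -0.083. Under median centring 4 of 7 were higher. Ribosomal protein genes had a lower ratio for 60 of 68, with a median of -0.10, and under median centring for 13 of 68. Of the oligodendrocyte markers 10 of 11 had a lower ratio at day 21 (11 of 11 without day 21 replicate 4), with a median difference of -0.30. Under median centring 9 of 11 did. Their medians in single day 21 animals were 0.43, -0.23, -0.37, 0.02 and -0.11, and those of the ribosomal proteins were 0.07, -0.12, 0.10, 0.01 and -0.04. Replicate 1 of day 21 was highest for the oligodendrocyte markers and lowest for the Eef genes. Other differences of the factors were smaller or more variable, at -0.19 for Eif3s5 (p = 0.10), -0.17 for Eif5a2 (p = 0.13), the testis and tumour paralogue of eIF5A, and -0.14 for Eif2ak1 (p = 0.15), all in the limma fit.

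**Figure D3:**
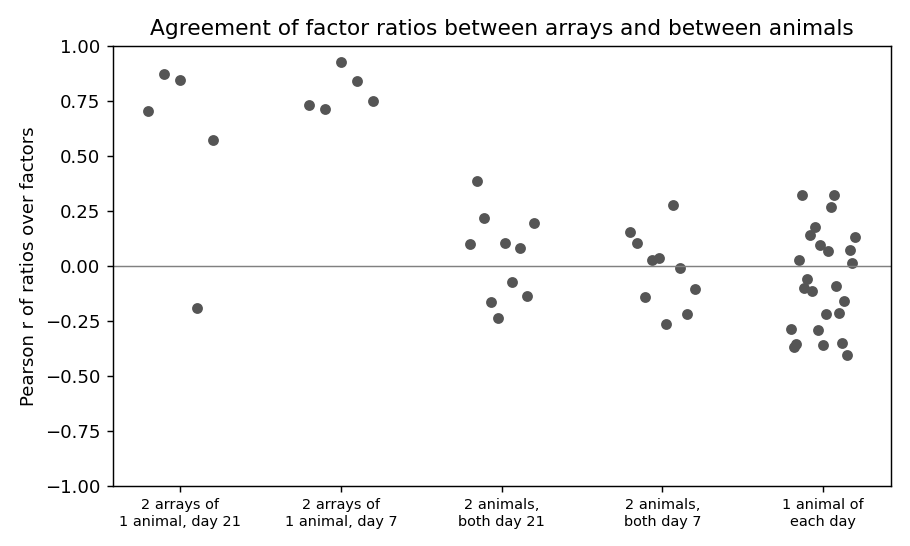
Pearson correlation over the 41 translation factors between the 2 arrays of an animal and between animals. The arrays of 9 of 10 animals correlate between 0.57 and 0.93 and those of day 21 replicate 4 at -0.19, while pairs of animals centre near 0.

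Factor ratios were repeatable within an animal and differed between animals. Over the 41 factors the correlation between day 21 animals had a median of 0.09 over 10 pairs, from -0.24 to 0.39. Between day 7 animals the median was 0.01 over 10 pairs, from -0.26 to 0.28, and across the days it was -0.09 over 25 pairs. These points share the probes, and the arrays of an animal also share its amplified RNA. The median over factors of the SD between animals was 0.15 at day 21 and 0.18 at day 7, against 0.10 and 0.12 over all genes. The median factor ratio was between -0.06 and 0.03 in single animals at day 21 and between -0.08 and 0.04 at day 7.

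Of the 42 genes 26 had a single probe. Probes of a gene disagreed in several others, named here for that reason after their values were seen. The brightest Eif3s10 (Eif3a, the scaffold of eIF3) probe averaged -0.05 at day 7 and -0.01 at day 21, and its other 2 probes averaged 0.23 and 0.35 at day 7 and 0.30 and 0.27 at day 21. For Eif2s2 (eIF2 beta) the probes averaged 0.04, 0.33 and -0.03 at day 7, and for Eef1g 0.06, 0.19 and 0.22. The second Eif2s2 probe was above 0 in all 5 day 7 animals, between 0.24 and 0.41, while the brightest was above 0 in 2. A dimmer probe of Eef1g, of Eif3s10 and of Eif4g3 was also above 0 in all 5. With the mean of all probes, Eef1g, Eef2, Eif2ak1 and Eif2s2 had an unadjusted limma p under 0.05 at day 7, and Eif4e did not. That made 4 of 41 factors, beside 9.56% of all genes with such a p.

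Levels were then compared within each kind of neuron, day 21 with day 7, as normalised log2 channel signals that have no meaning between probes. In sprouting neurons 13 factors had a higher and 28 a lower mean at day 21, where 41% of all genes had a higher one, and the median difference was -0.09 against -0.05 over all genes. In non-sprouting neurons the means of 12 factors were higher and those of 29 lower, where 40.5% of all genes had a higher one, and the median was -0.10 against -0.05. No factor passed the adjusted p in either (0% of genes in each), with lowest adjusted p values of 0.521 and 0.460 in limma. At an unadjusted p under 0.05 there were 3 factors in each, 7.32% of the 41, against 8.97% of all genes in sprouting and 9.18% in non-sprouting neurons. In sprouting neurons all 3 were lower at day 21, where 6.63% of genes were lower and 2.34% higher. With the scan day as a block none of the 3 stayed under 0.05. Eif4b alone, named after its value was seen, was under it, where 4.23% of all genes were. In non-sprouting neurons 1 was higher and 2 were lower, where 2.33% of genes were higher and 6.85% lower.

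**Figure D4:**
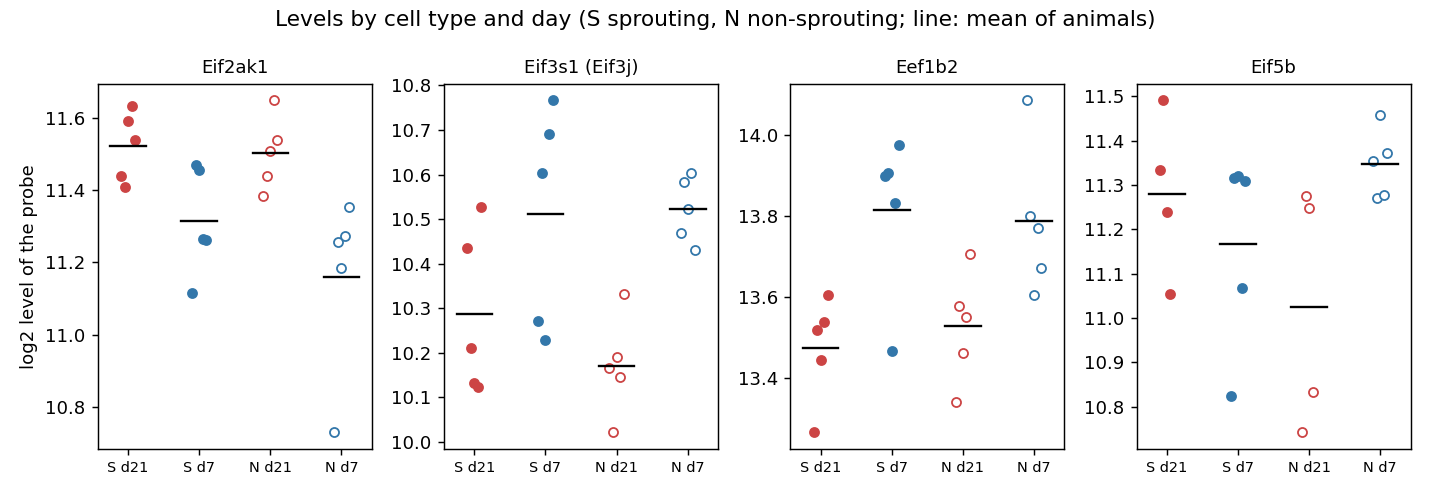
Normalised log2 channel level in every animal for Eif2ak1, Eif3s1, Eef1b2 and Eif5b in sprouting (S) and non-sprouting (N) neurons, day 21 left of day 7, with the mean as a line (n = 5 animals per group, 4 at day 21 for Eif5b). In non-sprouting neurons every day 21 animal lies below every day 7 animal for Eif3s1 and above every one for Eif2ak1.

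In sprouting neurons Eef1b2 was at 13.27, 13.52, 13.44, 13.54 and 13.61 at day 21, against 13.90, 13.91, 13.47, 13.83 and 13.98 at day 7. The groups overlapped only through replicate 3 of day 7. The difference was -0.34 with an SE of 0.12, a limma p of 0.018 and an adjusted p of 0.521, and it was -0.06, -0.50 and -0.23 within scan days. With the scan day as a block it was -0.27 with a p of 0.11. In non-sprouting neurons Eef1b2 differed by -0.26 (limma p = 0.051), the same direction in both kinds of neuron. The other factors at an unadjusted p under 0.05 in sprouting neurons were Eif2ak4, at 8.92 ± 0.17 at day 21 against 9.30 ± 0.35 at day 7 (limma p = 0.049), and the eIF2B subunit Eif2b2, at 8.79 ± 0.14 against 9.06 ± 0.20 (limma p = 0.0497). Within scan days Eif2ak4 differed by 0.11, -0.88 and -0.22 and Eif2b2 by -0.27, -0.16 and -0.08. With the scan day as a block the p was 0.17 for Eif2ak4 and 0.20 for Eif2b2, without day 21 replicate 4 that of Eif2ak4 was 0.10, and with its cell types exchanged that of Eif2b2 was 0.067. No factor separated the days in sprouting neurons, against 0.244% of all genes with every day 21 animal higher and 1.37% with every one lower.

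In non-sprouting neurons 1 factor was higher in every day 21 animal than in any day 7 animal, against 0.196% of all genes, and 1 was lower, against 1.39%. The higher one was Eif2ak1, at 11.38, 11.44, 11.51, 11.65 and 11.54 at day 21, against 10.73, 11.26, 11.18, 11.27 and 11.35 at day 7. Replicate 1 of day 7 lay well below the rest. The difference was 0.34 with an SE of 0.13, a limma p of 0.023 and an adjusted p of 0.516, and 0.33, 0.12 and 0.27 within scan days. With the scan day as a block it was 0.24 with a p of 0.10, and without day 21 replicate 4 it was 0.31 with a p of 0.053. In sprouting neurons Eif2ak1 differed by 0.21 (limma p = 0.076).

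The lower one was Eif3s1 (Eif3j, a loosely bound eIF3 subunit), at 10.16, 10.02, 10.19, 10.14 and 10.33 at day 21, against 10.47, 10.58, 10.52, 10.60 and 10.43 at day 7. Both groups were tight and did not overlap. Its difference was -0.35 with an SE of 0.09, a limma p of 0.0035 and an adjusted p of 0.460, and -0.37, -0.33 and -0.27 within scan days. With the scan day as a block it was -0.33 with a p of 0.024, and without day 21 replicate 4 it was -0.34 with a p of 0.0084. In sprouting neurons it was -0.23 (limma p = 0.14), with overlapping animals. Eif5b in non-sprouting neurons was at 11.02 ± 0.28 (n = 4) at day 21 against 11.35 ± 0.08 (n = 5) at day 7, with a limma p of 0.044, and a p of 0.11 with the scan day as a block.

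Levels of glial markers moved in the same comparison. In sprouting neurons 7 of 8 astrocyte markers were lower at day 21, 5 of them at an unadjusted limma p under 0.05, with a median difference of -0.43. For the oligodendrocyte markers 9 of 11 were lower there, 6 of them at an unadjusted p under 0.05, with a median of -0.44. Of all genes 41% were higher there, 6.63% were lower at an unadjusted p under 0.05, and the median was -0.05. In non-sprouting neurons 7 of 8 astrocyte and 7 of 11 oligodendrocyte markers were lower, with medians of -0.23 and -0.17. None of these had an unadjusted p under 0.05, and 40.5% of all genes were higher. The median oligodendrocyte level ran from 7.41 to 8.69 at day 21 and from 8.12 to 9.09 at day 7 in sprouting neurons. The part of glial RNA in the level differences was not tested.

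Other genes of protein synthesis were read from lists of translation regulators, release and poly(A) factors, and mitochondrial factors, and none of their members passed the adjusted p in limma on either day. Of all genes 48.9% lay above 0 at day 21 and 46.5% at day 7. Of 18 translation control kinases, phosphatases and targets 7 lay above 0 at day 21 (6 without replicate 4) and 13 at day 7. Among them Tsc2, the GTPase-activating subunit that restrains mTOR, was lower in all 5 day 21 animals, as were 4.17% of all genes. It averaged -0.13 ± 0.13 with a limma p of 0.033, and was lower in 4 of 5 with replicate 4 turned. At day 7 Ddit3 (CHOP, a transcription factor induced downstream of eIF2 phosphorylation) was higher in 5 of 5 animals, as were 3.57% of all genes. It averaged 0.19 ± 0.15 with a limma p of 0.0054 and an adjusted p of 0.428. Cyfip2, a partner of the FMRP protein and of the WAVE complex, was lower in 4 of 5 at day 7, at -0.27 ± 0.24 with a limma p of 0.0053 and an adjusted p of 0.428. Of 10 release, recycling and poly(A) factors 6 lay above 0 on both days. Gspt1 (eRF3a, a release factor) was lower in all 5 day 21 animals, as were 4.17% of all genes, and in 4 of 5 with replicate 4 turned. It averaged -0.16 ± 0.14 with a limma p of 0.016 and an adjusted p of 0.839. Of 3 mitochondrial translation factors 2 lay above 0 at day 21 and 1 at day 7, with Tufm, the mitochondrial elongation factor, at 0.05 at day 21 (limma p = 0.23).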

How the data were processed

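RNA of sprouting and non-sprouting neurons of 10 rats was measured on 20 arrays of 43628 spots. Per the file headers, Agilent Feature Extraction 9.1.3.1 wrote the deposited scanner files, whose values are intensity: mean signals, local background, and detrended, dye-normalized processed signals. A further table from the authors holds log2 ratios made by a method not given in the sources used here; 20 of its columns served as an alternative and 20 were not used.

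Mean signals were corrected with normexp (offset 50) and normalized within arrays by loess, with control and outlier spots left out (limma 3.58.1, R 4.3.3). A probe was kept when it exceeded background clearly on a share of 0.5 or more of the arrays of any cell type at either day, with values in 3 or more animals per day. The brightest probe stood for each of 33209 genes. Ratios per animal were fitted with lmFit and eBayes, with a mean per day. Levels were Aquantile-normalized. Tests were two-sided, adjusted by Benjamini-Hochberg over all genes, and checked on simulated data. RefSeq tables of GRCr8 gave current names and promoter windows. The genes, lists and tests were chosen with earlier results of these data known.

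Genes were named by the smallest p among those with 1 sign over all animals (up to 6 per direction and ratio comparison), by the smallest p between days (up to 4 per direction), as a fixed set of well-known factors, and up to 2 per other list and day. Alternatives covered background, normalization, filter, probes, deposited ratios, arrays as units, scan day, replicate number, leaving out each animal and, chosen after seeing the data, turning day 21 replicate 4. The number of animals, 5 per day, limits the precision.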

Additional observations from a re-analysis of the deposited data

Results flagged for a closer look

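In 96 groups of animals tested over 29 named factors, a few single animals lay far from the rest of their group by Dixon's test, which chance does in about 1 of 20 groups. Among the ratios, day 7 replicate 3 was high for Eif3s6 (Eif3e) at 0.49 and for Eif4b at 0.16. Day 21 replicate 2 was low for Eif4a1 at -0.26 and high for Eif4a2 at 1.13. That Eif4a1 value is of the brightest probe, and the other Eif4a1 probes gave 0.34, 0.11, 0.27 and 0.03 there. Among the levels, sprouting neurons of day 21 replicate 1 were high for Eif2s3x (Eif2s3) at 10.20 and those of day 7 replicate 3 were low for Eef1b2 at 13.47. Non-sprouting neurons of day 7 replicate 1 were low for Eif2ak1 at 10.73. The 2 arrays of day 21 replicate 4 correlated at -0.19 over the factors, far below the other animals of its day.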

How the results depend on the processing

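No factor passed the adjusted p under any alternative except with the 20 arrays as units and the animal as a random block (correlation 0.58), where Eif4e was lower at day 7 with a limma adjusted p of 0.037 (1 factor, with 404 genes called in all against 1). That fit called 515 genes against 0 for the mean of both days and 4 against 0 for the difference. Over the alternatives the lowest adjusted p of a factor was 0.037 at day 7, 0.285 at day 21, 0.216 for the mean, 0.272 for the difference, 0.230 for sprouting and 0.169 for non-sprouting levels.

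Counts of factors at an unadjusted p under 0.05 moved as follows, and the cause was not tested. With processed signals they were 1 at day 7 (against 3), 1 at day 21 (against 2), 0 for the mean (against 1) and 2 for the difference (against 5). In the same order 5.14%, 7.39%, 8.36% and 3.95% of all genes had such a p. Eif2c1 at day 21 turned to -0.0051. With median centring they were 8 of 41 at day 7, beside 9.35% of all genes, and 7 of 41 for the mean, beside 11.4%. The median over factors was then -0.11 at day 7, -0.075 for the mean and 0.054 for the difference. Under median centring the share of factors above 0 was 22% against 53.7% at day 7 and 14.6% against 46.3% for the mean. It was 58.5% against 41.5% for the difference, and processed signals gave 51.2% against 36.6% at day 21. The mean of all probes gave 1 at day 21 and 2 for the mean, scaling 0 for the mean, and 20 arrays 2 for the mean. In the same order 5.85%, 11%, 10.9% and 13.3% of all genes had such a p. Scan day as a block gave 3 for the difference and 1 (against 3, with none shared) for sprouting levels, beside 5.51% and 4.23% of all genes. It gave 46.3% against 29.3% of factors higher in non-sprouting levels. Non-sprouting levels gave 6 without background subtraction, 6 with quantile normalization and 5 without the filter (against 3). In the same order 8.91%, 9.36% and 8.87% of all genes had such a p. With day 21 replicate 4 turned, an alternative chosen after seeing the data, the counts were 1 at day 21 and 3 for the difference. Such a p was then found for 4.65% and 3.34% of all genes.

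Replicate numbers do not pair animals, since the days are separate rats. With the day mean of each gene taken off, the ratios of same-numbered animals correlated between -0.20 and 0.00. With the replicate block the count was 3 for the difference, 2 for sprouting and 2 for non-sprouting levels. Beside these counts, 3.28%, 11.3% and 12.2% of all genes had an unadjusted p under 0.05.

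Leaving out each animal gave counts of 2 to 4 at day 7, 1 to 3 at day 21, 0 to 3 for the mean, 2 to 5 for the difference, 1 to 4 for sprouting and 2 to 6 for non-sprouting levels. The shares of all genes were 7.76% to 12.4% at day 7, 3.32% to 6.54% at day 21 and 8.48% to 13.2% for the mean. They were 3.51% to 5.98% for the difference, 5.69% to 18.2% for sprouting and 5.96% to 19.3% for non-sprouting levels. The medians ran from -0.02 to 0.03, -0.03 to 0.00, -0.01 to 0.01, -0.06 to -0.00, -0.12 to -0.05 and -0.11 to -0.04 in the same order. The dim spots and the 5 animals per day limit what could be detected.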
